A study of Arabidopsis thaliana with 12 samples.

Results

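The microRNA160 (miR160) family was followed in small RNA libraries of Arabidopsis thaliana shoots in the Col-0 background. All names beginning with ath-miR160 were taken whatever their values, by a rule chosen with earlier results of these data known. This gave 5 of the 390 names of the table: ath-miR160a-5p, ath-miR160b, ath-miR160c-5p, ath-miR160a-3p and ath-miR160c-3p (written here without the prefix). The 4 groups were hasty-KO shoots in low N (low nitrogen), WT (wild type) shoots in low N, hasty-KO shoots in control and WT shoots in control, with 3 biological replicates each. Shoots were harvested at 10 days, after 5 days on standard nutrients and, for low N, 5 days on low nitrogen. The labels name the mutant as a hasty knockout with no allele, and do not describe the control medium of the last days separately. These libraries do not measure HASTY messenger RNA, so the genotype is taken from the labels. Whole shoots were used, in which fewer cells that make a miRNA and less of it per cell cannot be told apart.

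miR160 represses 3 auxin response factors (ARFs), ARF10, ARF16 and ARF17, which act mainly as repressors of auxin-responsive genes, and plants with a miR160-resistant ARF have defects of leaf, root and embryo development. Like other plant miRNAs it is cut from a hairpin precursor by DICER-LIKE1, and 1 strand of the resulting duplex is loaded into ARGONAUTE1 while the other strand is usually degraded. HASTY, the plant orthologue of the animal export receptor exportin-5, is needed for normal levels of many miRNAs.

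The family comes from 3 hairpin genes, and the mature sequences are shown because they decide which names can be told apart. The strand that pairs with the ARF messengers lies on the 5′ side of each hairpin (the 5p arm), and its opposite strand on the 3′ side (the 3p arm). Sequences are from the RefSeq TAIR10.1 genome, read 5′ to 3′, with the seed (bases 2 to 8) in capitals.
miR160a-5p, miR160b and miR160c-5p: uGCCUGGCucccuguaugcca
miR160a-3p: gCGUAUGAggagccaugcaua
miR160c-3p: cGUACAAGgagucaagcauga
The 3 names of the 5p arm share all 21 bases, and this sequence has 3 exact matches in the genome, 1 per hairpin. The 3p arms of miR160a and miR160c have 1 exact match each, so only these 2 names point to a single hairpin. Shifted by 1 base against each other, the 2 opposite strands are identical at 15 of 20 aligned positions. The annotation gives no 3p arm for the miR160b hairpin.

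The hairpins themselves are shown with the annotated mature arms in capitals. MIR160a (AT2G39175) lies on chromosome 2 at positions 16340279 to 16340363 on the plus strand, MIR160b (AT4G17788) on chromosome 4 at 9888982 to 9889070 on the plus strand, and MIR160c (AT5G46845) on chromosome 5 at 19009094 to 19009182 on the minus strand. Each is annotated as a miRNA gene of its own and overlaps 0 other genes of the annotation.
MIR160a: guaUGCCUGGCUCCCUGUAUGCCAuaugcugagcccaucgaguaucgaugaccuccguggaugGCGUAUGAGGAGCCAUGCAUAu
MIR160b: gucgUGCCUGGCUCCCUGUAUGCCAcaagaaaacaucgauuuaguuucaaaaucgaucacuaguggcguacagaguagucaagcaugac
MIR160c: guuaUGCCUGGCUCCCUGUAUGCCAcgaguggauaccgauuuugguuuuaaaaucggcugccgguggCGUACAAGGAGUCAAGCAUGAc

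The best ungapped match to the 5p strand in each target gene is shown because these are the messengers the family is known to act on. Bases in capitals form a Watson-Crick pair with the miRNA.
ARF10 site: aGGaAUACAGGGAGCCAGGCA
ARF16 site: gGGuuUACAGGGAGCCAGGCA
ARF17 site: UGGCAUgCAGGGAGCCAGGCA
The ARF10 site (AT2G28350, chromosome 2, 12115741 to 12115761, plus strand) had 2 mismatches and 0 G:U pairs. The ARF16 site (AT4G30080, chromosome 4, 14704141 to 14704161, minus strand) had 2 mismatches and 1 G:U pair. The ARF17 site (AT1G77850, chromosome 1, 29274189 to 29274209, plus strand) had 0 mismatches and 1 G:U pair. All 3 sites lie in coding exons. The messengers of these genes are not measured in small RNA libraries, so no value here bears on them.

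The table lists 1292752 to 3226269 counts per library, with lower totals in both hasty-KO groups than in the WT group of the same condition. Because names of 1 sequence each hold nearly the same counts, these totals are not the sequencing depth, and every level below is relative to the other listed miRNAs. Levels are counts per 1000000 table counts (CPM), normalised between libraries with TMM factors. Within a library the family was uneven by arm: the 5p sequence held 3647 to 9814 counts, miR160c-3p 174 to 1155 and miR160a-3p 3 to 66.

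The 3 names of the 5p sequence had close but unequal counts, with miR160c-5p above miR160a-5p and miR160a-5p above miR160b in 12 of 12 libraries. Of the miR160c-5p counts, 8.46% to 9.71% were missing under miR160b in hasty-KO low N and 6.16% to 8.44% in WT low N. In hasty-KO control 6.56% to 7.74% were missing, and in WT control 4.35% to 4.86%. The share missing under miR160b was therefore higher in every hasty-KO library than in any WT library of the same condition. In low N this order rests on 8.46% against 8.44%. The share was also higher in every low N library than in any control library of the same genotype, so the order is not particular to genotype. Between miR160c-5p and miR160a-5p the gap was 0.358% to 1.45% over all libraries. In the genome, the 2 bases before the mature start are shared by the miR160a and miR160c hairpins and 0 by either with miR160b, and the first base after the mature end is shared by miR160b and miR160c alone. The sources used here do not say how reads that extend past the annotated ends were assigned, and the part of such reads in these gaps was not tested. The comparison of names was made after the values were seen and carries no test. No share of other sequences listed under several names is given beside these orders, so how common they are is not known here.

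**Figure D1:**
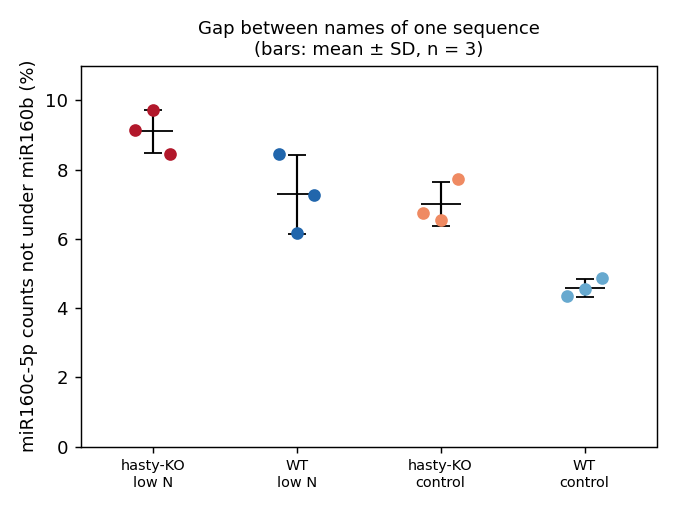
Share of miR160c-5p counts (percent, y axis) not listed under miR160b, a name of the same 21-base sequence, in each group (x axis). Points are libraries, bars mean ± SD (n = 3). The 3 hasty-KO low N libraries sit highest, at 8.46% to 9.71%, and the 3 WT control libraries lowest, at 4.35% to 4.86%.

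Between genotypes, the target-pairing 5p strand was 1.25-fold higher in hasty-KO in control, a call that most fits without 1 library lost. Both opposite 3p strands were lower in hasty-KO in the mean of both conditions, a contrast added after the data were seen. Both of these 3p calls missed the threshold with no filter on low counts, and that of miR160c-3p in further settings. In hasty-KO control, miR160a-5p stood at 3247, 2857 and 3101 CPM, against 2312, 2506 and 2542 CPM in WT control. Each hasty-KO library was above each WT library, as in 26.4% of the tested names. The group means were 3068 ± 197 CPM in hasty-KO control and 2454 ± 124 CPM in WT control (SD, n = 3 each), a 1.25-fold difference (log2 change 0.32 ± 0.11 SE, edgeR quasi-likelihood test, adjusted p = 0.032). miR160c-5p gave the same change (0.32, edgeR adjusted p = 0.032), and miR160b, with fewer counts of the same sequence, missed the threshold of 0.05 (0.28, edgeR adjusted p = 0.062). Thus 2 of 5 members passed upward in this comparison and 0 downward, where 18.7% of the 273 tested names passed upward and 27.1% downward, and the 2 are names of 1 sequence. The call was not stable: without any 1 of 11 of the 12 libraries the adjusted p of miR160a-5p was 0.064 to 0.29, with WT low N replicate 2 as the exception (0.048). Each of these fits redid the filter and tested 294 to 302 names in place of 273, so the library and the tested set changed together. When libraries were scaled by their totals its change was 0.10 (edgeR adjusted p = 0.54), a setting that moved the median of all names by -0.22, and with 1 row per mature sequence it was 0.14 (edgeR adjusted p = 0.35).

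In low N the 5p strand did not separate by genotype. miR160a-5p stood at 2735, 2502 and 2754 CPM in hasty-KO low N and at 2299, 2991 and 2251 CPM in WT low N. WT low N replicate 2 was above all 3 hasty-KO libraries and the other WT libraries below them. The log2 change was 0.08, with a 95% interval of -0.16 to 0.32 (edgeR adjusted p = 0.62), so that a 1.25-fold difference is inside the interval. The values of miR160b (0.05) and miR160c-5p (0.08) also missed the threshold. By mean level the order of the groups was hasty-KO control, hasty-KO low N (2664 ± 140 CPM), WT low N (2514 ± 414 CPM) and WT control. The libraries of the last 3 groups overlapped between neighbours, and those of the first pair did not overlap but missed the threshold.

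**Figure D2:**
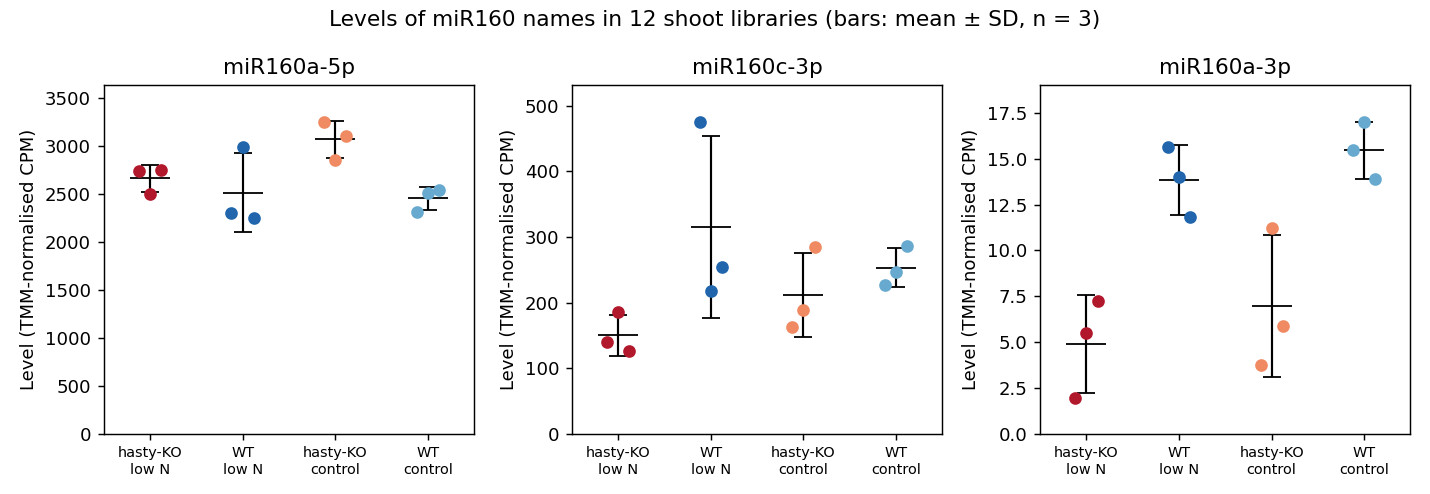
Levels (TMM-normalised CPM, y axes from 0) of the 5p strand, shown by miR160a-5p, and of both 3p strands in the 4 groups (x axes). Points are libraries, bars mean ± SD (n = 3). miR160a-5p stays between 2251 and 3247 CPM in all 12 libraries. For miR160a-3p all 6 hasty-KO libraries lie below all 6 WT libraries, as for 16.5% of tested names.

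The opposite strand of the MIR160a hairpin, miR160a-3p, was the least abundant member. It had 3, 8 and 10 counts in hasty-KO low N and 38, 28 and 26 counts in WT low N. In control it had 8, 27 and 11 counts in hasty-KO and 52, 66 and 49 in WT. In CPM this was 1.97, 5.52 and 7.24 in hasty-KO low N against 15.6, 14.0 and 11.8 in WT low N, and 3.73, 11.3 and 5.89 in hasty-KO control against 15.5, 16.99 and 13.9 in WT control. No hasty-KO library reached the lowest WT library, in either condition or over both. All hasty-KO libraries were below all WT libraries for 33.3% of the tested names in control, 27.8% in low N and 16.5% over both. In each condition alone the changes missed the threshold, at -1.14 ± 0.51 SE in control (edgeR adjusted p = 0.10) and -1.49 ± 0.52 in low N (edgeR adjusted p = 0.053). As a mean over both conditions, a contrast added after the data were seen, miR160a-3p was 2.49-fold lower in hasty-KO (log2 change -1.31 ± 0.37, edgeR adjusted p = 0.013). Its adjusted p stayed at 0.012 to 0.047 when any 1 library was left out, and was 0.054 with no filter on low counts. The counting error alone of such low counts was 43.1% of the mean in hasty-KO low N and 29.0% in hasty-KO control, against 1.61% and 1.24% for miR160a-5p.

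The opposite strand of the MIR160c hairpin, miR160c-3p, was lower in hasty-KO in low N. It stood at 140.1, 185.7 and 125.9 CPM in hasty-KO low N and at 475.0, 217.6 and 254.4 CPM in WT low N. The groups did not overlap (27.8% of names had this order), and WT low N replicate 1 was far above the other libraries of its group. The log2 change was -1.07 ± 0.32 SE (2.10-fold lower, edgeR adjusted p = 0.027), and this was the 1 member of 5 that passed downward, with 0 upward, where 23.4% of tested names passed downward and 11.4% upward. Without WT low N replicate 1 it was -0.60 (edgeR adjusted p = 0.10). The call also ended without hasty-KO low N replicate 1 (adjusted p = 0.080) or replicate 3 (adjusted p = 0.093). In control, miR160c-3p stood at 162.3, 189.2 and 284.4 CPM in hasty-KO and at 227.2, 246.9 and 286.5 CPM in WT. These groups overlapped, with a change of -0.26 and a 95% interval of -0.97 to 0.45 (edgeR adjusted p = 0.56). Over both conditions the change was -0.66 ± 0.22 (edgeR adjusted p = 0.031). In this mean contrast 2 members passed upward and 2 downward, against 24.2% and 31.5% of all tested names, and the upward ones were miR160a-5p (0.20, edgeR adjusted p = 0.043) and miR160c-5p (0.20, edgeR adjusted p = 0.046). Both upward calls ended in 11 of the 12 fits that left out 1 library (adjusted p up to 0.19 and 0.21) and held without WT low N replicate 2 alone. For miR160c-3p the adjusted p was 0.057 to 0.069 in 6 of the 12 fits that left out 1 library (hasty-KO low N replicate 1 or 3, hasty-KO control replicate 1 or 2, WT control replicate 2 or 3).

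**Figure D3:**
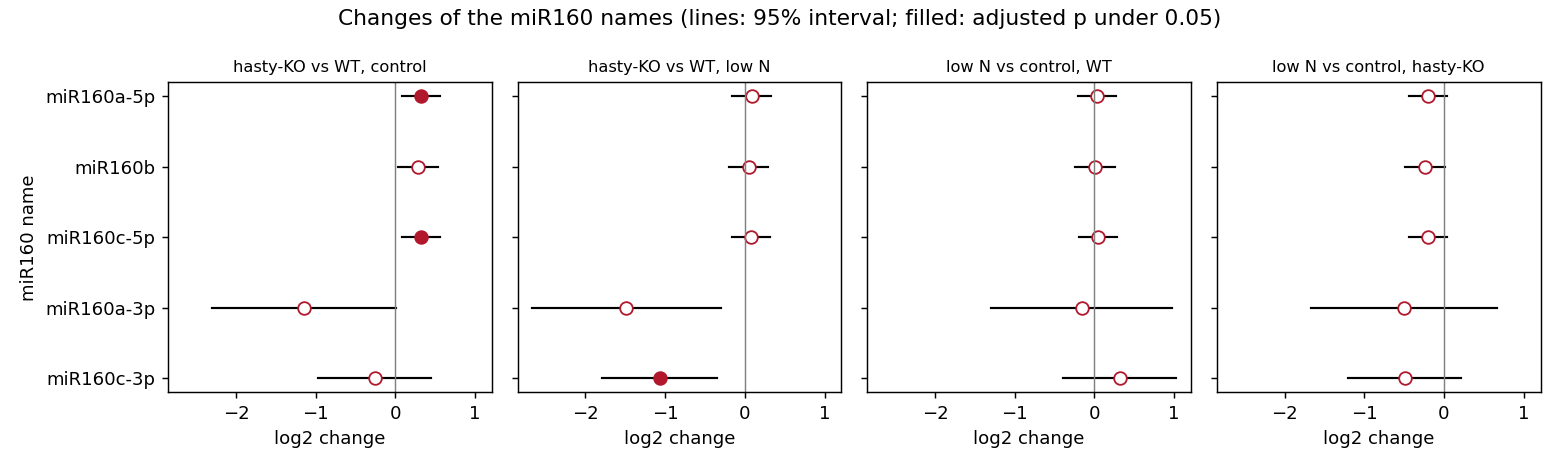
Log2 changes (x axes) of the 5 miR160 names (rows) in the 4 comparisons of groups (panels). Circles are edgeR estimates, lines 95% intervals, and filled circles an adjusted p under 0.05. The filled circles are miR160a-5p and miR160c-5p in hasty-KO against WT in control, at 0.32, and miR160c-3p in hasty-KO against WT in low N, at -1.07.

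The ratio of the 3p to the 5p name within a library does not depend on how libraries are scaled against each other. For the miR160a names, hasty-KO libraries held 0.0721, 0.221 and 0.263 3p counts per 100 5p counts in low N, where WT held 0.680, 0.468 and 0.526. In control, hasty-KO held 0.115, 0.394 and 0.190 and WT 0.670, 0.678 and 0.546. All 6 hasty-KO libraries were below all 6 WT libraries, an order found in 17.5% of the 40 known hairpins with both arms above 0. On a log2 scale with 0.5 added to both counts, the mean ratio of hasty-KO minus that of WT was -1.57 in control and -1.67 in low N. The mean over conditions was -1.62, or 3.08-fold lower in hasty-KO (exact two-sided permutation of genotype within conditions, p = 0.005, the smallest the 400 assignments can give, adjusted over 4 tests p = 0.020). The size of this difference rests on hasty-KO 3p counts as low as 3, and it was smaller with 5 added to both counts. The adjusted p was 0.010 to 0.040 when any 1 library was left out.

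For the miR160c names, hasty-KO libraries held 5.09, 7.38 and 4.54 3p counts per 100 5p counts in low N, where WT held 20.4, 7.20 and 11.2. In control, hasty-KO held 4.98, 6.58 and 9.12 and WT 9.77, 9.77 and 11.2. The control groups did not overlap, an order of all hasty-KO below all WT libraries found in 30.0% of the 40 known hairpins with both arms above 0, and in low N 1 hasty-KO library lay above 1 WT library. The mean difference was -0.85 (1.80-fold lower in hasty-KO, exact two-sided permutation p = 0.010, adjusted p = 0.020). It was -0.65 without WT low N replicate 1 (exact permutation, adjusted p = 0.050, not under the threshold), and without hasty-KO low N replicate 1 or 3 the adjusted p was 0.060. The 5p name in both ratios is the sequence of all 3 hairpins, so the ratio compares a strand of 1 hairpin with the sum of the family. Low N gave ratio differences of -0.23 for miR160a (exact permutation p = 0.515, adjusted p = 0.69; -0.018 with 5 added to both counts) and -0.03 for miR160c (exact permutation p = 0.94, adjusted p = 0.94).

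**Figure D4:**
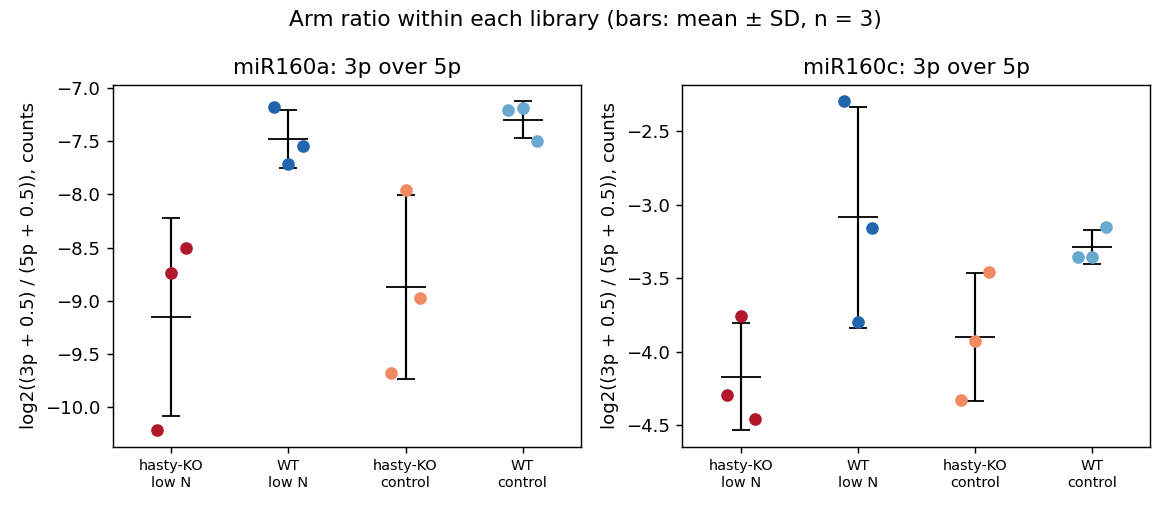
Ratio of 3p to 5p counts (log2, 0.5 added to both counts, y axes) for the miR160a and miR160c names in the 4 groups (x axes). Points are libraries, bars mean ± SD (n = 3). All hasty-KO points lie below all WT points for miR160a, as in 17.5% of 40 hairpins. WT low N replicate 1 stands highest for miR160c, at 20.4 3p counts per 100 5p counts.

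The same ratio was computed for all 40 known hairpins with both arms above 0 in every library, to place these values. Their median difference between hasty-KO and WT was -0.11 (log2), and 22 of 40 were lower in hasty-KO. The range ran from -1.72 for miR157a and miR157b to 1.90 for miR393b. With 0.5 added to both counts, miR160a had the 5th lowest difference and miR160c the 10th lowest. In 17.5% of the 40 hairpins all hasty-KO libraries were below all WT libraries, and in 15.0% all were above. Differences of a similar size to that of miR160a were measured for miR156f (-1.71) and miR167a (-1.66).

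**Figure D5:**
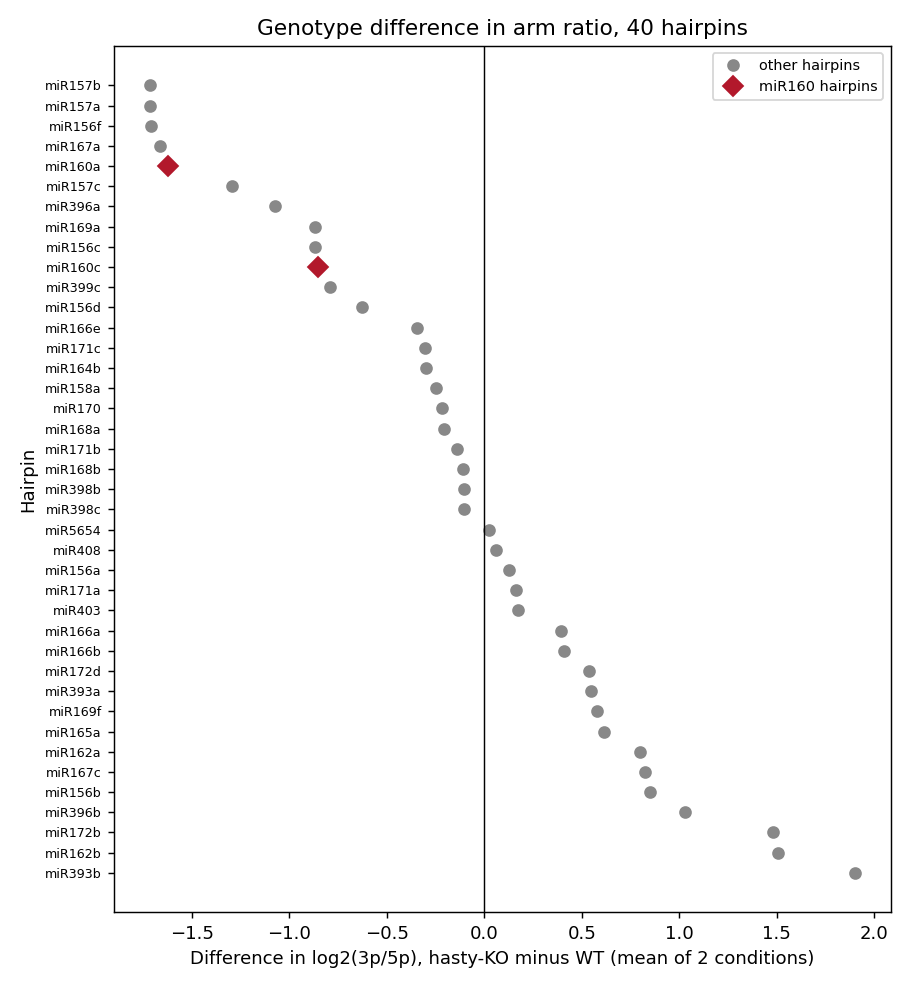
Difference in log2(3p/5p) between hasty-KO and WT, as the mean of both conditions (x axis), for 40 hairpins (rows). Diamonds are miR160a (-1.62) and miR160c (-0.85), circles the other hairpins, and names that share a mature sequence are not independent.

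Low N changed the level of none of the 5 members past the threshold, in either genotype, in edgeR's test. In WT, edgeR called 0 of 5, where it called 32.2% of tested names, and limma and DESeq2 also called 0 members. At an unadjusted p under 0.05 in edgeR there were also 0 of 5. The log2 change of miR160a-5p, in WT low N against WT control, was 0.03, with a 95% interval of -0.20 to 0.27, and its sign turned with library totals (-0.33). In hasty-KO, edgeR called 0 of 5, where it called 23.8% of tested names, and limma and DESeq2 called 0 members. There too, 0 of 5 had an unadjusted p under 0.05 in edgeR. All 3 hasty-KO low N libraries were below all 3 hasty-KO control libraries for the 3 names of the 5p sequence, a separation found in 24.2% of tested names. The change of miR160a-5p there was -0.20, with a 95% interval of -0.44 to 0.03 (edgeR adjusted p = 0.22). Of the opposite strands in hasty-KO, the log2 change was -0.50 for miR160a-3p (edgeR adjusted p = 0.60) and -0.49 for miR160c-3p (edgeR adjusted p = 0.33). Without hasty-KO control replicate 2 the value of miR160a-3p was -0.016. The interaction, the low N response in hasty-KO minus that in WT, was -0.24 for miR160a-5p (edgeR adjusted p = 0.53) and -0.81 for miR160c-3p (edgeR adjusted p = 0.50). It was -0.07 for miR160a-5p without WT control replicate 1, and -0.24 for miR160c-3p without WT low N replicate 1. Members called in the interaction were 0, by edgeR, limma or DESeq2, where edgeR called 1.83% of tested names. At an unadjusted p under 0.05 in edgeR there were also 0 members. In the mean of both genotypes, a contrast added after the data were seen, edgeR, limma and DESeq2 also called 0 members, where edgeR called 34.1% of tested names. Scaled by library totals, edgeR called the 3 names of the 5p sequence lower in low N there (miR160a-5p at -0.31, adjusted p = 0.019), a setting that moved the median of all names by -0.23.

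By mean level over 12 libraries the 5p sequence of miR160 was the 18th most abundant of 165 known mature sequences. miR160a-5p, at 2675 CPM, stood between miR156a-3p (2736 CPM) and miR157a-3p (2637 CPM), with both neighbours inside its own range of 2251 to 3247 CPM. miR160c-3p ranked 74th and miR160a-3p 149th of 216 known names. The 5 names whose log2 level was most like that of miR160a-5p over the 12 libraries were the predicted names NovelmiRNA-127, NovelmiRNA-173, NovelmiRNA-128, NovelmiRNA-129 and NovelmiRNA-96, with Pearson correlations of 0.77 to 0.74 among 142 distinct rows above 0 in every library. All share their libraries and scaling with miR160a-5p. Their group means were not those of miR160a-5p: all 5 were higher in hasty-KO in both conditions. NovelmiRNA-127 stood at 729.0 CPM in hasty-KO control and 397.2 CPM in WT control. In low N it stood at 671.9 CPM in hasty-KO and 388.5 CPM in WT, where miR160a-5p did not separate by genotype.

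The other miRNA families of auxin signalling are miR167, which acts on ARF6 and ARF8, miR390, which triggers the small RNAs that silence ARF3 and ARF4, miR393, which acts on the auxin receptors TIR1 and AFB2, and miR847, which acts on IAA28. In control, 2 of their 14 tested names were higher in hasty-KO and 2 lower, with a median log2 change of 0.34 (0.0 over all 273 names), where 18.7% and 27.1% of tested names were. In low N, 1 was higher and 3 lower, with a median of 0.13 (0.0 over all names), where 11.4% and 23.4% of tested names were. By nitrogen in WT, 3 of 14 were higher and 1 lower (median 0.22, against 0.06 over all names), where 17.2% and 15.0% of tested names were. In hasty-KO 2 were higher and 1 lower (median -0.0050, against -0.05), where 8.79% and 15.0% of tested names were. Of the most abundant name of each family, miR167b stood at 39110 ± 1830 CPM in hasty-KO control and 36110 ± 6360 CPM in WT control (edgeR adjusted p = 0.55). miR393b-3p stood at 1745 ± 89.8 CPM in hasty-KO control and 393.6 ± 136 CPM in WT control (SD, n = 3 each), a log2 change of 2.15 (edgeR adjusted p = 0.00016). This is a name of the 3p arm, and no level of a 5p name of miR393 is given here. It was the 1 of 4 miR393 names called in control, where the median log2 change of the 4 was 0.53. miR390a-5p had 754 to 1157 counts in the 6 hasty-KO libraries, and 3 of the 6 WT libraries listed it at 0 (edgeR adjusted p = 0.41 in control). miR847 was listed at 0 in all 6 hasty-KO libraries. It had 132 to 210 counts in WT low N and 1008 to 1976 in WT control. It therefore passed the filter on low counts through the WT libraries alone, and no test by genotype is given for it. It is among the names counted above as lower in hasty-KO, in control and in low N. None of the 5 miR160 names was listed at 0 in any library.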

How the data were processed

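Small RNA libraries were compared as deposited: per the file headers there is 1 column per library. The values are whole-number counts per miRNA name, although the deposited table is named TPM, and the sources used here do not give how the authors trimmed, aligned and counted reads. The submitters' processing notes name only mm10, a mouse assembly. Counts were filtered with filterByExpr (273 of 390 names kept, all 5 members among them) and fitted with edgeR 4.0.16 (TMM factors, two-sided quasi-likelihood test; R 4.3.3), using 1 coefficient for each group and 8 residual degrees of freedom. Adjusted p-values are Benjamini-Hochberg over all tested names. The SE is the change divided by the square root of F, and 95% intervals rest on it. The code was tested on simulated data. Arm ratios were tested by exact permutation over libraries.

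The rule for members and all lists were chosen with earlier results of these data known. Text names cover all members, the most abundant name of each auxin family, the 5 names most correlated with miR160a-5p, and its neighbours in level. Names of arm-ratio hairpins were chosen after their values were seen. Mature sequences and positions were matched by exact product name to TAIR10.1 for 216 of 216 known names. Alternatives were median-of-ratios factors, library totals, DESeq2 1.42.0, limma 3.58.1 on log2(CPM + 1), no filter, a filter at 10 CPM on the mean, 1 row per mature sequence, a block for the replicate number, only the groups compared, 5 in place of 0.5 added in arm ratios, and the omission of each library. Each edgeR fit without 1 library redid the filter on low counts and tested 294 to 302 names. Per the labels the PCR products carry no stated molecular identifiers.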

Additional observations from a re-analysis of the deposited data

How the results depend on the processing

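Outside the fits that leave out 1 library, 243 of 300 values of the members kept their direction and their side of the threshold. All changes here are log2 and from edgeR unless another tool is named, hasty-KO against WT or low N against control, and the cause of these differences was not tested.

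Between genotypes in control, miR160a-5p and miR160c-5p missed the threshold with library totals (0.10 each), no filter (0.30 and 0.29), a mean of at least 10 CPM (0.21 each) and 1 row per mature sequence (0.14 each). miR160b passed with median-of-ratios factors and with DESeq2 (0.40 each), and miR160a-3p with DESeq2 (-1.03). In low N, miR160a-3p passed with DESeq2 (-1.37) and limma (-1.44), and miR160c-3p missed it with no filter (-0.85) and only the groups compared (-1.02). In the mean of both conditions, miR160a-5p and miR160c-5p missed it with library totals (0.13 and 0.12), at least 10 CPM (0.14 each) and 1 row per sequence (0.11 each). There, miR160a-3p missed it with no filter (-1.20), miR160c-3p with no filter (-0.57) and median-of-ratios factors (-0.54), and miR160b passed with no filter (0.26), median-of-ratios factors and DESeq2 (0.30 each).

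By nitrogen, library totals gave called changes in the mean of both genotypes for miR160a-5p (-0.31), miR160b (-0.34) and miR160c-5p (-0.30). In WT they turned miR160a-5p (-0.33), miR160b (-0.36), miR160c-3p (-0.021) and miR160c-5p (-0.32), none of them called. There, no filter turned miR160a-5p (-0.11), miR160b (-0.14) and miR160c-5p (-0.10), only the groups compared turned them to -0.089, -0.12 and -0.081, and 1 row per sequence to -0.17. miR160b also turned with at least 10 CPM (-0.028) and limma (-0.0095). The interaction turned with library totals (0.046, 0.048 and 0.039 for miR160a-5p, miR160b and miR160c-5p) and no filter (0.010, 0.011 and 0.0035).

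Same-numbered libraries varied together in some pairs and not in others (18 pairs, correlations -0.31 to 0.40, 7 over 0.1). With 3 replicates per group this cannot exclude a shared batch, and the main fit used no block for the replicate number. With the replicate block, miR160a-5p and miR160c-5p in control (0.32 each), miR160c-3p in low N (-1.05), the mean genotype changes of miR160a-5p (0.21), miR160c-5p (0.20) and miR160c-3p (-0.65), and the arm ratios of miR160a (-1.62) and miR160c (-0.85, exact sign flips of pairs, adjusted p = 0.125 each) missed the threshold, and 3 names passed in the interaction. With 6 pairs the smallest sign-flip p is 0.0312, which miR160a reached, and over 4 tests it cannot pass alone, so this says nothing about the stability of the ratios. With 5 added to both counts the genotype ratios were -1.17 (miR160a) and -0.84 (miR160c), exact permutation, adjusted p = 0.020 each.

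Names called were 143 with DESeq2, against 95, between genotypes in low N, and 57 with 1 row per sequence, against 88, by nitrogen in WT. In the interaction they were 25 with DESeq2 and 13 with limma, against 5. Called names split into 51 higher and 74 lower between genotypes in control, but 36 and 81 with library totals. In low N they split into 31 and 64, but 47 and 59 with median-of-ratios factors. By nitrogen in WT they split into 47 and 41, but 15 and 62 with library totals. That setting moved the median of all names there by -0.33 and in the interaction by 0.27.

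With each library left out in turn, in control miR160a-5p ran from 0.19 to 0.40, miR160c-5p from 0.19 to 0.40, miR160a-3p from -1.67 to -0.89 and miR160c-3p from -0.48 to -0.14. In low N, miR160a-5p ran from 0.0075 to 0.21, miR160a-3p from -1.86 to -1.07, miR160b from -0.031 to 0.19, miR160c-5p from -0.0015 to 0.21 and miR160c-3p from -1.31 to -0.60. In the genotype mean, miR160a-5p ran from 0.14 to 0.28, miR160c-5p from 0.14 to 0.27 and miR160c-3p from -0.78 to -0.48. By nitrogen in WT, miR160a-5p ran from -0.16 to 0.058, miR160b from -0.20 to 0.028, miR160c-5p from -0.15 to 0.068 and miR160c-3p from -0.17 to 0.49. The interaction ran from -0.33 to -0.068 for miR160a-5p, -1.05 to -0.24 for miR160c-3p and -0.62 to 0.21 for miR160a-3p, with 1 to 11 names called. By nitrogen in hasty-KO, miR160a-5p ran from -0.34 to -0.12, miR160a-3p from -0.84 to -0.016 and miR160c-3p from -0.72 to -0.33, and 41 to 80 names were called, with 41 without hasty-KO low N replicate 2. The miR160c genotype ratio ran from -1.03 to -0.65, and the nitrogen ratios from -0.43 to 0.037 (miR160a) and -0.23 to 0.15 (miR160c).

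Counting error, which covers sampling of reads alone, limits miR160a-3p most, and the values of the 3 5p names are 1 measurement.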
